A study of Homo sapiens with 24 samples.

Results

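Enzymes that build gangliosides and globosides from ceramide were followed through treatment of BRAF-mutant cancer cells with vemurafenib, an inhibitor of mutant BRAF. The 8 genes, ST8SIA1, A4GALT, B4GALNT1, ST3GAL5, UGCG, B4GALT5, B4GALT6 and ST3GAL2, were taken by symbol. They are 8 of 13699 genes and hold 10 of 47231 probes, and all 10 probes passed the filter on dim probes. The set was chosen by measured values of these same arrays: a fall of ST8SIA1 in SKMEL28, and opposite changes of A4GALT at 6 h in the 2 lines. Those values are therefore given as a description, without a test. Total RNA was measured on 24 Illumina bead arrays, 3 in each of 8 groups. The groups were SW1736, labelled a thyroid cancer cell line, and SKMEL28, labelled a melanoma cell line, each left untreated (0 h) or given 2 µM vemurafenib for 1, 6 or 48 h. Both lines carry BRAF V600E, the labels give 1 line for each tumour type, and all cells grew in RPMI with serum. Cells left untreated were collected at 0 h only, so drug and time in culture cannot be told apart. The labels do not say whether the 3 arrays of a group are from different cultures, and the p-values cover no more than the spread among these arrays.

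Glycosphingolipids are lipids of the outer cell membrane whose sugar chains are built step by step in the Golgi. UGCG adds glucose to ceramide, and B4GALT5 and B4GALT6 then add galactose to give lactosylceramide, the branch point of the pathway. ST3GAL5 turns lactosylceramide into the ganglioside GM3, whereas A4GALT turns it into globotriaosylceramide, the first globo-series lipid. ST8SIA1 adds a further sialic acid to GM3 to give GD3, a ganglioside long known as a surface antigen of melanoma. B4GALNT1 makes GM2 and GD2, and ST3GAL2 adds sialic acid to the ends of longer ganglioside and globo-series chains.

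The drug readout and the melanocyte markers went with the labels, and the thyroid markers did so in part. DUSP6, a phosphatase that the ERK pathway induces, fell by 1.76 log2 units in SW1736 and fell by 2.18 in SKMEL28 after 1 h (limma adjusted p = 6.3e-05 and 1.29e-06). Its means at 0, 6 and 48 h were 8.10, 5.38 and 6.99 in SW1736, and 9.79, 4.93 and 5.49 in SKMEL28. Those of SPRY4, the other readout gene, were 6.49, 4.68 and 6.27 in SW1736, and 9.44, 4.81 and 6.11 in SKMEL28. The readout at 48 h thus lay nearer its untreated level in SW1736 than in SKMEL28. At 6 h SPRY4 was detected on no array of either line and DUSP6 on none of SKMEL28, so these 6 h means only bound the falls. Of 8 melanocyte markers 7 were measured, and their summed intensity at 0 h was 231 to 243 in SW1736 against 33700 to 34700 in SKMEL28. Of 6 thyroid markers only PAX8 and FOXE1 were measured. TG was detected on 0 arrays and NKX2-1 on 0 arrays, so the defining markers of thyroid follicular cells were absent. Replicate arrays correlated at 0.978 to 0.992. The median SD of a gene between replicates was 0.279 log2 units in SW1736 and 0.18 in SKMEL28.

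The sequence before the start site is shown for 4 genes, because ST8SIA1, ST3GAL5 and B4GALT5 were each lower in SKMEL28 at 6 h and A4GALT was higher in SW1736, the values of ST8SIA1 and A4GALT being those that chose the set. RefSeq's table (GRCh38.p14) held an entry for 5 of the 8 genes, and the entries missing were those of B4GALNT1, B4GALT6 and ST3GAL2. Each line gives 250 bases, 5′ to 3′ on the gene's strand, with GC boxes (GGGCGG on either strand) in capitals.
ST8SIA1, chr12:22334708-22334957, minus strand: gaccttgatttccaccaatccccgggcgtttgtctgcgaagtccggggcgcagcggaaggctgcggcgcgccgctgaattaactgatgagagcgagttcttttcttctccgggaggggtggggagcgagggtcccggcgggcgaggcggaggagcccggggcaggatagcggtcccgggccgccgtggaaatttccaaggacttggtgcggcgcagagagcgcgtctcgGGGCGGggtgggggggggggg
A4GALT start 1, chr22:42721302-42721551, minus strand: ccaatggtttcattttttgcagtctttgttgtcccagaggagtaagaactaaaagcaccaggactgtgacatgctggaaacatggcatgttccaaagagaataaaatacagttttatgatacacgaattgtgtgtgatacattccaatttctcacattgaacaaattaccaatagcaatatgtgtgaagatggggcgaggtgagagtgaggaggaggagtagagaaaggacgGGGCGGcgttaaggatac
A4GALT start 2, chr22:42720871-42721120, minus strand: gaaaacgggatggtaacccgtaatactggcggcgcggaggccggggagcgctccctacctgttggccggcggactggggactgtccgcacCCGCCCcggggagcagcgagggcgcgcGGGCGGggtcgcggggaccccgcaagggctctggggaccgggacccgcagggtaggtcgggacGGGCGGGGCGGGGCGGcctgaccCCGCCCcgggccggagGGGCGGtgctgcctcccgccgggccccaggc
ST3GAL5 start 1, chr2:85889035-85889284, minus strand: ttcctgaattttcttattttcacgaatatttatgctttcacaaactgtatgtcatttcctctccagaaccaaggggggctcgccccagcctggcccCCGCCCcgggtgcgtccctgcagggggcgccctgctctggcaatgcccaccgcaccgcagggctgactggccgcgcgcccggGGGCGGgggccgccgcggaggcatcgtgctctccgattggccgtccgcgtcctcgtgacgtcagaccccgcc
B4GALT5, chr20:49713879-49714128, minus strand: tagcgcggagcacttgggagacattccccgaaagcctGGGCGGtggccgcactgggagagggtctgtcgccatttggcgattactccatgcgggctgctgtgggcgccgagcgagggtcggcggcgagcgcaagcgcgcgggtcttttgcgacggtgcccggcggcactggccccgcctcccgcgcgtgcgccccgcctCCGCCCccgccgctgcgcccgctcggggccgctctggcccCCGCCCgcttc
The motifs searched on both strands were TGANTCA (the AP-1 site), CCGGAA (an ETS core), CACGTG and CATGTG (E-boxes) and GGGCGG. None of the printed windows held any of the first 4 motifs. Of 35116 promoter windows of the same length, 6.57% hold the AP-1 site, 14.5% the ETS core, 6.34% the CACGTG box and 9.42% the CATGTG box. GGGCGG, held by 42.6% of all windows, occurred in every printed window: 1 match in ST8SIA1, 1 and 7 in the A4GALT windows, 2 in ST3GAL5 and 3 in B4GALT5. Of the windows not printed, that of UGCG held 1 match to the ETS core and 3 GC boxes, and the 4 other starts of ST3GAL5 held 3, 1, 0 and 0 GC boxes and none of the first 4 motifs. In a stretch of the second A4GALT window, 3 of the 7 matches shared bases with a neighbour. The first A4GALT window had a GC content of 42.0% and the second one of 79.2%, against a median of 58.0% over all windows. A match is only a description of these letters, and a missing match says nothing of a factor's binding.

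Values below are normalized log2 intensities of 1 probe a gene, differences are treated minus untreated cells on that log2 scale with the SE of a limma fit over all genes, and adjusted p-values cover all 13699 genes with a threshold of 0.05. A probe was detected on an array where the detection p deposited for it was under 0.05. Probes differ in brightness, so the level of 1 gene is not set against that of another. In RNA from bulk cultures, fewer expressing cells and less RNA per cell cannot be told apart. Comparisons within a line share its 3 untreated arrays.

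**Figure D1:**
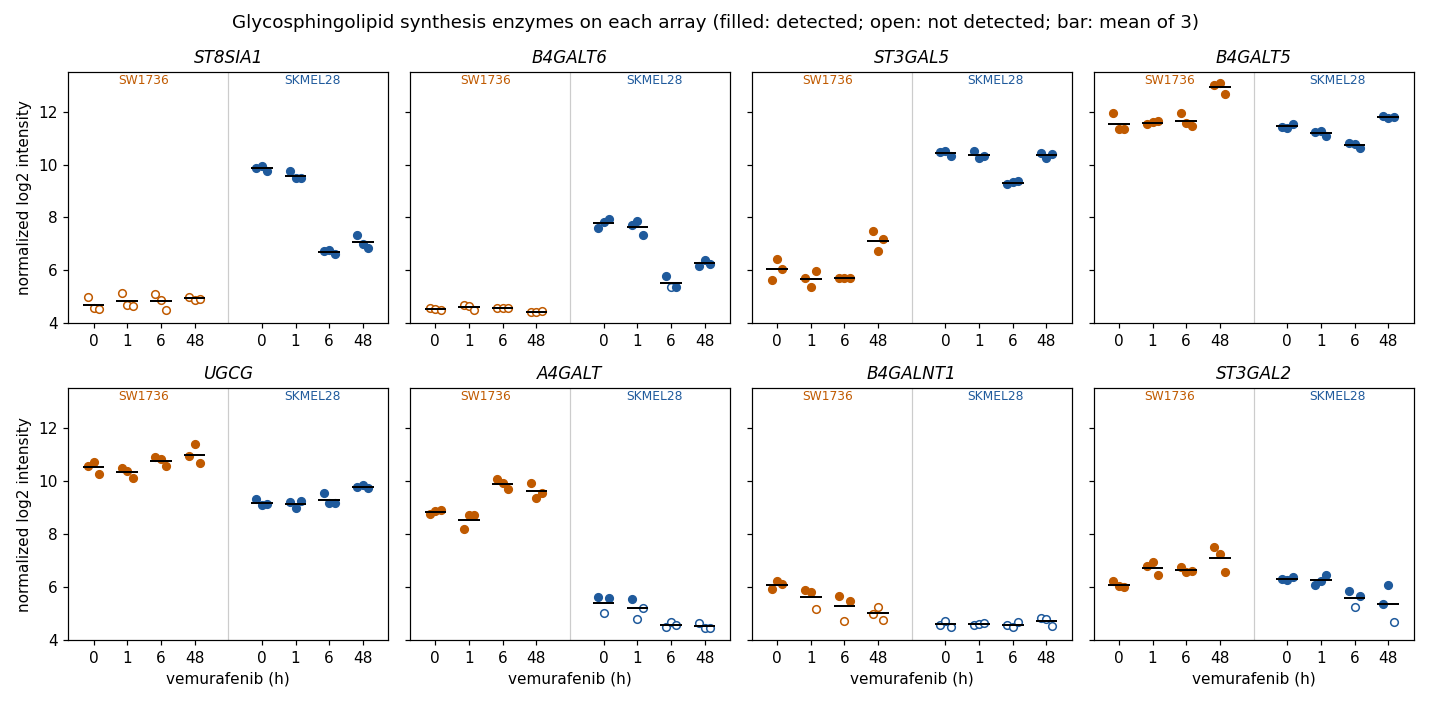
Normalized log2 intensity (vertical axis) of each of the 8 enzymes on every array against hours of vemurafenib (horizontal axis), SW1736 on the left of each panel and SKMEL28 on the right. Filled points were detected, open points were not, and bars are means of 3 arrays. The main probe of ST8SIA1 and the probe of B4GALT6 drop at 6 h in SKMEL28 and are open throughout in SW1736, while A4GALT sits high in SW1736 and near the detection limit in SKMEL28.

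In untreated cells, 4 of the 6 enzymes tested were called different between SW1736 and SKMEL28. For 2 of them, B4GALT6 and B4GALNT1, the direction was fixed by the filter on dim probes. SW1736 had more for B4GALNT1 and UGCG, and less for ST3GAL5 and B4GALT6. Of the 6 genes tested, 2 were higher and 2 lower in SW1736, where 50.3% of all genes were called, 25.5% higher and 24.8% lower. ST3GAL5, the GM3 synthase, read 5.63, 6.44 and 6.06 in SW1736 against 10.47, 10.51 and 10.33 in SKMEL28, a difference of -4.40 ± 0.19 (SE; adjusted p = 1.93e-15). UGCG, which makes glucosylceramide, read 10.57, 10.70 and 10.26 in SW1736 against 9.31, 9.08 and 9.13 in SKMEL28, a difference of 1.34 ± 0.17 (adjusted p = 6.26e-07). No array of one line overlapped the other for either gene. B4GALT6 was not detected in SW1736 and was at least 5.51-fold lower there. B4GALNT1 was not detected in SKMEL28 and was at least 1.80-fold higher in SW1736. These "at least" folds take the lowest signal detected on each array as the upper limit of the undetected group. B4GALT6 and B4GALNT1 each passed the filter only through arrays of the line where it is high. Their 2 calls are therefore a description, and no p-value is given for them. The 2 other genes tested were not called. B4GALT5 differed by 0.09 (95% interval -0.25 to 0.43) and ST3GAL2 by -0.22 (-0.75 to 0.31). ST8SIA1 was at least 23.1-fold lower and A4GALT 10.9-fold higher in SW1736, both given without a test. These sizes hold with background correction: the log2 differences were -5.16 and 3.44 with it, and -3.30 and 2.05 without it or with the authors' deposited values.

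In SKMEL28 the genes of both lactosylceramide synthases and of the GM3 synthase were lower at 6 h, and of these B4GALT6 was still called lower at 48 h. At 6 h, 0 of the 6 genes tested were higher and 3 were lower (B4GALT6, ST3GAL5 and B4GALT5), where 6.9% of all genes were called, 2.65% higher and 4.25% lower. At 48 h, 1 of 7 was higher (UGCG) and 3 were lower (B4GALT6, ST3GAL2 and A4GALT), where 38.9% of all genes were called, 20.1% higher and 18.9% lower. Of these, A4GALT was not detected at 48 h, and it shares its untreated arrays with the values that chose it. Between 6 h and 48 h, 4 of 6 were higher (ST3GAL5, B4GALT5, B4GALT6 and UGCG) and 0 lower, where 32.9% of all genes were called, 17.8% higher and 15.1% lower. At 1 h, limma called 0 of 7, and 0.175% of all genes. An unadjusted p under 0.05 was reached by 0 of 7, and by 2.88% of all genes. Without ST8SIA1 and A4GALT, whose values chose the set, the median difference of the 6 other genes was -0.07 at 1 h, -0.73 at 6 h and 0.02 at 48 h, beside medians of -0.00, 0.00 and 0.03 over all genes.

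In SW1736 most calls came at 48 h and were upward. At 48 h, 5 of 8 genes were higher (A4GALT, ST3GAL5, UGCG, B4GALT5 and ST3GAL2) and 1 was lower (B4GALNT1), where 34.3% of all genes were called, 18.2% higher and 16.1% lower. The call of A4GALT is not independent of its choice at 6 h, since the untreated arrays are the same. At 6 h, 1 of 7 was called, B4GALNT1, which was lower, where 8.7% of all genes were called, 4.03% higher and 4.67% lower. Between 6 h and 48 h, 2 of 7 were higher (ST3GAL5 and B4GALT5) and 0 lower, where 27.5% of all genes were called, 14.9% higher and 12.6% lower. At 1 h, limma called 0 of 8, and 0.212% of all genes. An unadjusted p under 0.05 was reached by 2 of 8, and by 8.39% of all genes. The median difference of the same 6 genes was -0.07 at 1 h, 0.09 at 6 h and 0.75 at 48 h, beside -0.00, 0.01 and 0.02 over all genes. Calls were common over all genes at 48 h in both lines, and whether the counts at that time are particular to these enzymes was not tested.

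**Figure D2:**
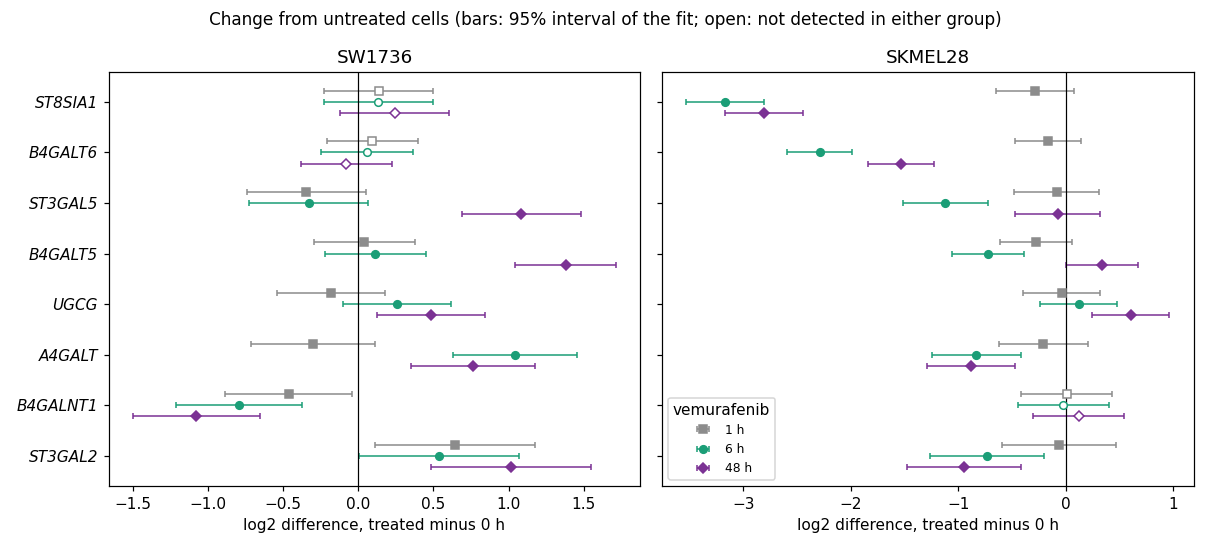
Log2 difference from untreated cells (horizontal axis, with its own range in each panel) of the 8 enzymes after 1, 6 and 48 h of vemurafenib, SW1736 on the left and SKMEL28 on the right. Points are fitted differences, bars their 95% intervals, and open points mark genes not detected in either group. In SKMEL28 ST8SIA1 lies at -3.17 and B4GALT6 at -2.29 at 6 h, while in SW1736 B4GALT5, ST3GAL5 and ST3GAL2 lie above 0 at 48 h.

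ST8SIA1, the GD3 synthase, was the most reduced of the 8 in SKMEL28. Its main probe was detected on none of the SW1736 arrays, where the 12 values lay between 4.50 and 5.14. In SKMEL28 it read 9.87, 9.96 and 9.77 at 0 h, 9.76, 9.48 and 9.50 at 1 h, 6.73, 6.75 and 6.61 at 6 h, and 7.35, 6.99 and 6.84 at 48 h. The 6 h arrays were the lowest, the 48 h arrays lay just above them, and neither overlapped the untreated arrays. The fitted difference was -0.28 ± 0.17 at 1 h, -3.17 ± 0.17 at 6 h and -2.81 ± 0.17 at 48 h, which is 8.99-fold lower at 6 h and 7.01-fold lower at 48 h. Between 6 h and 48 h it changed by 0.36, with a 95% interval of -0.00 to 0.72. The second ST8SIA1 probe gave 8.90, 8.86 and 8.77 at 0 h in SKMEL28 and fitted differences of -0.02 at 1 h, -3.43 at 6 h and -2.99 at 48 h (SE 0.25 each). It was detected there on 1 of 3 arrays at 6 h, near the detection limit. In SW1736 the second probe was detected on 1 of 3 arrays at 48 h and on 0 of 3 at the other times. Without background correction the difference of the main probe was -2.39 at 6 h and -2.18 at 48 h.

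B4GALT6 and B4GALT5 encode the 2 lactosylceramide synthases, and they differed in course. B4GALT6 read 7.62, 7.82 and 7.96 at 0 h in SKMEL28, 7.70, 7.87 and 7.33 at 1 h, 5.80, 5.36 and 5.37 at 6 h, and 6.18, 6.39 and 6.24 at 48 h. Its arrays at 6 h and 48 h all lay below the untreated arrays, and those at 48 h all above those at 6 h. It fell by 2.29 ± 0.15 at 6 h (adjusted p = 1.35e-10) and by 1.53 ± 0.15 at 48 h (adjusted p = 1.21e-08), with a rise of 0.76 ± 0.15 between them (adjusted p = 0.000291). At 6 h it was detected on 2 of 3 arrays, so the size of the fall there is set by values near the detection limit. In SW1736 it was detected on no array, all 12 values lying between 4.44 and 4.71.

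B4GALT5 was detected on every array. In SW1736 it read 11.96, 11.35 and 11.32 at 0 h, 11.52, 11.59 and 11.64 at 1 h, 11.93, 11.58 and 11.46 at 6 h, and 13.01, 13.09 and 12.68 at 48 h. In SKMEL28 it read 11.43, 11.40 and 11.54 at 0 h, 11.23, 11.25 and 11.06 at 1 h, 10.81, 10.76 and 10.62 at 6 h, and 11.84, 11.75 and 11.78 at 48 h. All 48 h arrays of both lines lay above the untreated arrays of their line, and the 6 h arrays of SKMEL28 lay below. In SW1736 the difference was 0.11 ± 0.16 at 6 h (adjusted p = 0.744) and 1.38 ± 0.16 at 48 h (adjusted p = 4.69e-07). In SKMEL28 it was -0.72 ± 0.16 at 6 h (adjusted p = 0.0052) and 0.34 ± 0.16 at 48 h (adjusted p = 0.11), with 1.06 between 6 h and 48 h (adjusted p = 1.76e-05). The change in SW1736 minus that in SKMEL28 was 0.84 ± 0.23 at 6 h (adjusted p = 0.0367) and 1.04 ± 0.23 at 48 h (adjusted p = 0.00181). The 6 h difference between lines missed the threshold when arrays were scaled to 1 median (0.90, adjusted p = 0.0765), and when any of 9 arrays was left out: each untreated or 6 h array of SKMEL28, the second or the third untreated array of SW1736, or its first 6 h array (0.70 to 0.88, adjusted p = 0.0533 to 0.106).

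ST3GAL5, whose product GM3 is the substrate of ST8SIA1, dipped and came back in SKMEL28 and rose late in SW1736. In SW1736 it read 5.63, 6.44 and 6.06 at 0 h, 5.73, 5.38 and 5.98 at 1 h, 5.72, 5.71 and 5.71 at 6 h, and 7.49, 6.72 and 7.17 at 48 h. In SKMEL28 it read 10.47, 10.51 and 10.33 at 0 h, 10.50, 10.25 and 10.31 at 1 h, 9.25, 9.32 and 9.38 at 6 h, and 10.43, 10.26 and 10.40 at 48 h. The 6 h arrays of SKMEL28 and the 48 h arrays of SW1736 stood apart from all other arrays of their line. In SW1736 the difference was -0.33 ± 0.19 at 6 h (adjusted p = 0.324) and 1.09 ± 0.19 at 48 h (adjusted p = 9.67e-05). In SKMEL28 it was -1.12 ± 0.19 at 6 h (adjusted p = 0.000312) and -0.08 at 48 h, with a 95% interval of -0.47 to 0.32 (adjusted p = 0.81). The second ST3GAL5 probe differed by -1.40 ± 0.16 at 6 h in SKMEL28 (adjusted p = 1.47e-06 over probes, of which 6.04% were called) and by 0.67 ± 0.16 at 48 h in SW1736 (adjusted p = 0.00183, with 31.6% of probes called). The change in SW1736 minus that in SKMEL28 was called at 48 h (1.16 ± 0.27, adjusted p = 0.003). At 6 h it was called from the second probe (1.22 ± 0.22, adjusted p = 0.00137, with 3.57% of probes called) and not from the main one (0.79 ± 0.27, adjusted p = 0.12). The second probe was detected on 1 of 3 SW1736 arrays at 0 h and on 0 of 3 at 6 h. A fall there could not have been seen with it, so its 6 h difference between lines rests on SKMEL28.

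UGCG, the first glycosylation step, was higher than untreated in both lines at 48 h. In SW1736 it read 10.57, 10.70 and 10.26 at 0 h, 10.49, 10.37 and 10.12 at 1 h, 10.89, 10.84 and 10.58 at 6 h, and 10.93, 11.39 and 10.66 at 48 h. In SKMEL28 it read 9.31, 9.08 and 9.13 at 0 h, a mean of 9.14 at 1 h (SD 0.12), 9.55, 9.16 and 9.18 at 6 h, and 9.76, 9.84 and 9.74 at 48 h. The 48 h arrays of SKMEL28 lay above all its others, whereas in SW1736 the 48 h and untreated arrays overlapped. The difference at 48 h was 0.48 ± 0.17 in SW1736 (adjusted p = 0.0333) and 0.61 ± 0.17 in SKMEL28 (adjusted p = 0.00701). The difference between lines was -0.12, with a 95% interval of -0.63 to 0.38 (adjusted p = 0.784). The call in SW1736 was lost with the line fitted alone (adjusted p = 0.113) and without its first untreated, its last untreated or its second 48 h array (0.29 to 0.52, adjusted p = 0.0504 to 0.225). Scaling to 1 median ended the call in both lines, at 0.22 in SW1736 and 0.45 in SKMEL28 (adjusted p = 0.495 and 0.115).

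A4GALT, which opens the globo-series branch, had opposite courses in the lines. In SW1736 it read 8.77, 8.87 and 8.90 at 0 h, 8.20, 8.71 and 8.73 at 1 h, 10.06, 9.91 and 9.68 at 6 h, and 9.93, 9.36 and 9.54 at 48 h. In SKMEL28 it read 5.63, 5.01 and 5.57 at 0 h, 5.56, 4.81 and 5.21 at 1 h, 4.48, 4.66 and 4.57 at 6 h, and 4.64, 4.47 and 4.47 at 48 h. All SW1736 arrays at 6 h and 48 h lay above the untreated ones, and all SKMEL28 arrays at those times lay below theirs. The values at 6 h, given without a test, were 1.04 ± 0.20 in SW1736 and -0.83 ± 0.20 in SKMEL28. At 48 h, A4GALT was higher by 0.77 ± 0.20 in SW1736 (adjusted p = 0.00422), a call lost when arrays were scaled to 1 median (0.55, adjusted p = 0.0575). In SKMEL28 it was detected on 2 of 3 arrays at 0 h, 1 of 3 at 1 h, 0 of 3 at 6 h and 0 of 3 at 48 h, so only a bound can be given. It was at least 1.09-fold lower at 48 h (adjusted p = 0.00105) and, without a test, at least 1.06-fold lower at 6 h. The change in SW1736 minus that in SKMEL28 at 48 h was 1.65 ± 0.28 as fitted (adjusted p = 0.000136), a size that is not exact since SKMEL28 has only a bound. The 48 h comparisons share their untreated arrays with the 6 h values that chose A4GALT, so they are not independent of that choice.

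B4GALNT1, which makes GM2 and GD2, was not detected on any of the 12 SKMEL28 arrays, where it read 4.47 to 4.82. In SW1736 it read 5.93, 6.22 and 6.10 at 0 h, 5.90, 5.80 and 5.17 at 1 h, 5.66, 4.73 and 5.47 at 6 h, and between 4.76 and 5.26 at 48 h. It was detected on 3, 2, 2 and 0 of 3 arrays at these 4 times, and every treated array lay below the untreated ones. The difference was -0.46 ± 0.20 at 1 h (adjusted p = 0.547) and -0.80 ± 0.20 at 6 h (adjusted p = 0.0145). At 48 h it was at least 1.74-fold lower (adjusted p = 0.000214). The 6 h call was lost without background correction (-0.32, adjusted p = 0.0662), with SW1736 fitted alone (adjusted p = 0.115), without the second untreated array (-0.73, adjusted p = 0.059) and without the second 6 h array (-0.52, adjusted p = 0.105).

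ST3GAL2 was dim in both lines and went opposite ways at 48 h. In SW1736 it read 6.22, 6.03 and 6.02 at 0 h, 6.81, 6.96 and 6.43 at 1 h, 6.75, 6.55 and 6.59 at 6 h, and 7.50, 7.26 and 6.57 at 48 h. In SKMEL28 it read 6.30, 6.26 and 6.38 at 0 h, 6.09, 6.21 and 6.44 at 1 h, 5.84, 5.24 and 5.67 at 6 h, and 5.35, 6.07 and 4.69 at 48 h. Every treated array of SW1736 lay above the untreated ones, and in SKMEL28 every array at 6 h and 48 h lay below them, with 2 of 3 detected at each of these times. At 48 h the difference was 1.02 ± 0.26 in SW1736 (adjusted p = 0.00334) and -0.94 ± 0.26 in SKMEL28 (adjusted p = 0.00495). Without the third 48 h array of SKMEL28 the SKMEL28 value was -0.60 (adjusted p = 0.0613). At 6 h neither line passed the threshold, with 0.54 in SW1736 (adjusted p = 0.218) and -0.73 in SKMEL28 (adjusted p = 0.102). The change in SW1736 minus that in SKMEL28 was 1.27 ± 0.36 at 6 h (adjusted p = 0.0483) and 1.96 ± 0.36 at 48 h (adjusted p = 0.000326). The 6 h call was lost when any 1 of 18 of the 24 arrays was left out (1.10 to 1.34, adjusted p = 0.0519 to 0.142).

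The response of several of these genes differed between the lines. At 6 h, 3 of 6 tested had a higher change in SW1736 than in SKMEL28 (B4GALT5, B4GALT6 and ST3GAL2) and 0 a lower one, where 4.26% of all genes were called, 2.3% higher and 1.96% lower. At 48 h, 5 of 7 had a higher change (A4GALT, ST3GAL5, B4GALT5, B4GALT6 and ST3GAL2) and 1 a lower one (B4GALNT1), where 21% of all genes were called, 11.5% higher and 9.55% lower. Here too, A4GALT shares its untreated arrays with the 6 h values that chose it. In the change between 6 h and 48 h, 1 of 6 was called, B4GALT6, which was lower, where 18.2% of all genes were called, 9.74% higher and 8.49% lower. At 1 h limma called 0 of 7, and 0.0219% of all genes. An unadjusted p under 0.05 was reached by 0 of 7, and by 4.44% of all genes. B4GALT6 is not detected in SW1736 and B4GALNT1 is not detected in SKMEL28, so a fall in that line could not have been seen, and their differences between lines rest on the other line. For ST8SIA1 the fitted difference between lines was 3.30 at 6 h and 3.05 at 48 h, with the same limit and without a test.

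Genes with a course like that of ST8SIA1 were sought by Pearson's r over the 8 group means, among 5312 genes whose group means had an SD of at least 0.5. The 5 highest were SHROOM2 (r = 0.995), POU3F2 (0.994), B4GALT6 (0.994), CCL20 (0.991) and GDF15 (0.991). POU3F2 is a transcription factor of the melanocyte and neural lineages. Its mean in SKMEL28 was 9.04 at 0 h, 8.57 at 1 h, 6.69 at 6 h and 7.02 at 48 h, and it was detected on no SW1736 array. GDF15, a secreted stress cytokine, had means of 11.03, 10.48, 7.93 and 7.50 at these times in SKMEL28 and was likewise not detected in SW1736. SHROOM2 was detected on 1 SW1736 array and CCL20 on 0. B4GALT6 thus stood in the third place of 5312, and it was the only one of the 8 enzymes among the 5. The other 6 enzymes correlated with ST8SIA1 less closely, ST3GAL5 coming next at 0.892. The r of each pair is a description over 8 points from the same 24 arrays, which include the step between the lines.

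**Figure D3:**
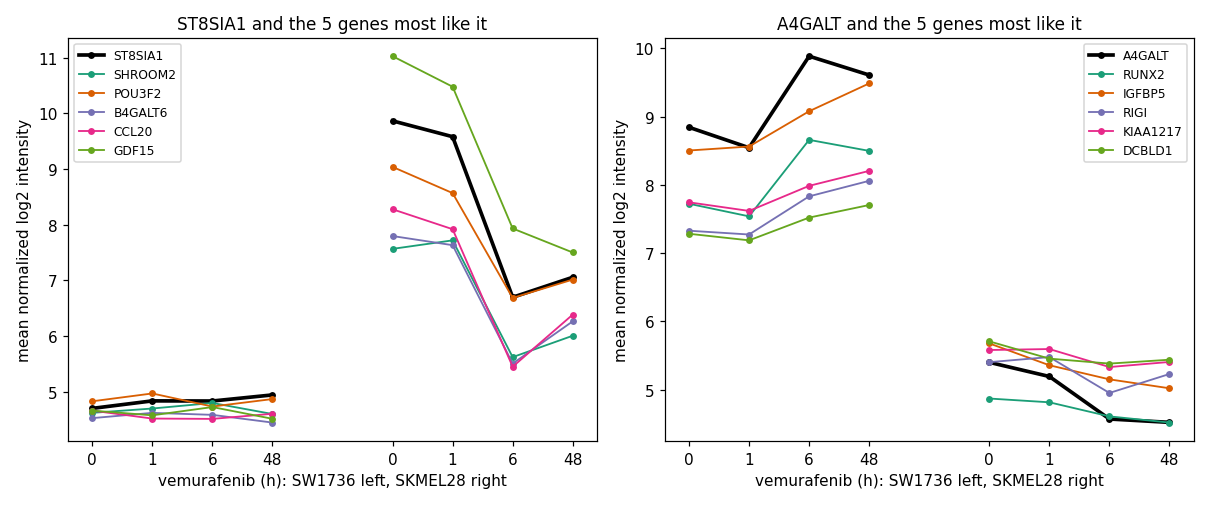
Mean normalized log2 intensity (vertical axis) at 0, 1, 6 and 48 h of vemurafenib (horizontal axis) of ST8SIA1 (left panel) and A4GALT (right panel), in black, with the 5 genes most like each in colour. In each panel SW1736 is on the left and SKMEL28 on the right, and each point is a mean of 3 arrays. The ST8SIA1 group steps down at 6 h in SKMEL28 and lies near the detection limit in SW1736.

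For A4GALT the 5 highest were RUNX2 (r = 0.998), IGFBP5 (0.994), RIGI (0.994), KIAA1217 (0.994) and DCBLD1 (0.994). RUNX2, a transcription factor of bone formation, had means of 7.72, 7.54, 8.66 and 8.50 at 0, 1, 6 and 48 h in SW1736. In SKMEL28 it was detected on 1 of 3 arrays at 0 h and on none later. IGFBP5, a binding protein of insulin-like growth factors, had means of 8.51, 8.56, 9.08 and 9.49 in SW1736 and 5.68, 5.36, 5.15 and 5.02 in SKMEL28. Its means at 6 h and 48 h thus lay above the untreated mean in SW1736 and below it in SKMEL28. None of the 8 enzymes was among the 5.

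Neighbouring steps were read from 5 lists, which were drawn up with earlier results of these data known. Beside each list stand the calls over all genes: at 48 h 18.2% were higher and 16.1% lower in SW1736, and 20.1% higher and 18.9% lower in SKMEL28. At 6 h the shares were 4.03% and 4.67% in SW1736, and 2.65% and 4.25% in SKMEL28. Nothing is called particular to a list from these counts. Of 18 other glycosyltransferases that act on glycosphingolipids, 12 were measured. At 48 h, 5 of the 12 rose and 0 fell in SW1736, while 1 rose and 4 fell in SKMEL28. ST6GALNAC5, which makes alpha-series gangliosides, rose by 1.27 ± 0.17 in SW1736 (adjusted p = 4.1e-06) and was not detected in SKMEL28. ST3GAL1, which caps galactose with sialic acid, rose by 0.56 ± 0.20 in SW1736 and fell by 0.71 ± 0.20 in SKMEL28 at 48 h (adjusted p = 0.0334 and 0.0061). In SKMEL28 it fell by 1.36 ± 0.20 at 6 h (adjusted p = 5.02e-05), when 2 of the 12 were lower there and none was called in SW1736. The change of ST3GAL1 in SW1736 minus that in SKMEL28 at 48 h was 1.27 ± 0.28 (adjusted p = 0.00199). B3GALNT1, which makes globoside, was lower in SKMEL28 by 0.53 at 6 h (adjusted p = 0.05, just inside the threshold) and by 0.90 at 48 h (adjusted p = 8.05e-05). The median of the 12 at 48 h was 0.16 in SW1736 and -0.24 in SKMEL28, beside 0.02 and 0.03 over all genes.

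Sialyltransferases that act mainly on glycoproteins, were measured for 8 of 11. At 48 h, 3 of the 8 rose in SW1736 and 3 in SKMEL28, and 0 fell in either line, with medians of 0.26 and 0.34. ST6GALNAC2 rose in both, by 1.47 ± 0.18 in SW1736 and 2.18 ± 0.18 in SKMEL28 (adjusted p = 7.94e-07 and 8.48e-10). ST6GAL1, which caps N-glycans, rose by 2.18 ± 0.23 in SW1736 (adjusted p = 9.87e-08). ST3GAL6 was lower in SKMEL28 at 6 h by 1.31 ± 0.23 (adjusted p = 0.00053) with a mean of 8.63 against 9.93 untreated, and at 48 h its mean was 9.96, a course like that of ST3GAL5.

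Of 17 listed genes of glycosphingolipid breakdown, 12 were measured. At 48 h, 6 of the 12 rose and 0 fell in SW1736 (18.2% and 16.1% of all genes), while 9 rose and 1 fell in SKMEL28 (20.1% and 18.9% of all genes). At 6 h, 1 of 12 was called in SW1736 (NEU1, higher by 0.62) and 0 in SKMEL28. NEU1, a lysosomal sialidase, rose by 1.47 ± 0.18 in SW1736 and 0.58 ± 0.18 in SKMEL28 at 48 h (adjusted p = 5.85e-07 and 0.0114). CTSA, which protects the lysosomal sialidase and galactosidase, rose by 0.70 ± 0.16 in SW1736 and 1.41 ± 0.16 in SKMEL28 (adjusted p = 0.00108 and 1.11e-07). HEXA, a subunit of the hexosaminidase that degrades GM2, rose by 1.23 ± 0.23 in SKMEL28 (adjusted p = 0.000134). GALC, a galactosylceramidase, was the 1 that fell there, by 1.00 ± 0.22 (adjusted p = 0.000898). The median of the 12 was 0.56 in SW1736 and 0.58 in SKMEL28, beside 0.02 and 0.03 over all genes.

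Ceramide synthesis and lipid transfer (18 of 22 measured) showed no called change at 6 h in either line. At 48 h, 6 of the 18 rose and 0 fell in SW1736, and 7 rose and 1 fell in SKMEL28. SPTSSA, a small subunit of serine palmitoyltransferase, rose by 1.27 ± 0.16 in SW1736 and 0.71 ± 0.16 in SKMEL28 (adjusted p = 9.05e-07 and 0.000779). CERT1, which carries ceramide to the Golgi for sphingomyelin synthesis, rose by 0.56 ± 0.14 in SW1736 and 0.99 ± 0.14 in SKMEL28 (adjusted p = 0.00406 and 6.27e-06). Of the sugar nucleotide list 15 of 16 were measured, and 0 were called at 6 h in either line. At 48 h, 4 of the 15 rose and 3 fell in SW1736, and 2 rose and 4 fell in SKMEL28, shares near those of all genes. CMAS, which activates sialic acid, fell by 0.36 ± 0.13 in SW1736 and by 0.97 ± 0.13 in SKMEL28 (adjusted p = 0.0333 and 2.14e-06). SLC35A1, which carries the activated sialic acid into the Golgi, rose by 0.39 ± 0.13 in SW1736 and 0.80 ± 0.13 in SKMEL28 (adjusted p = 0.0196 and 2.42e-05).

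**Figure D4:**
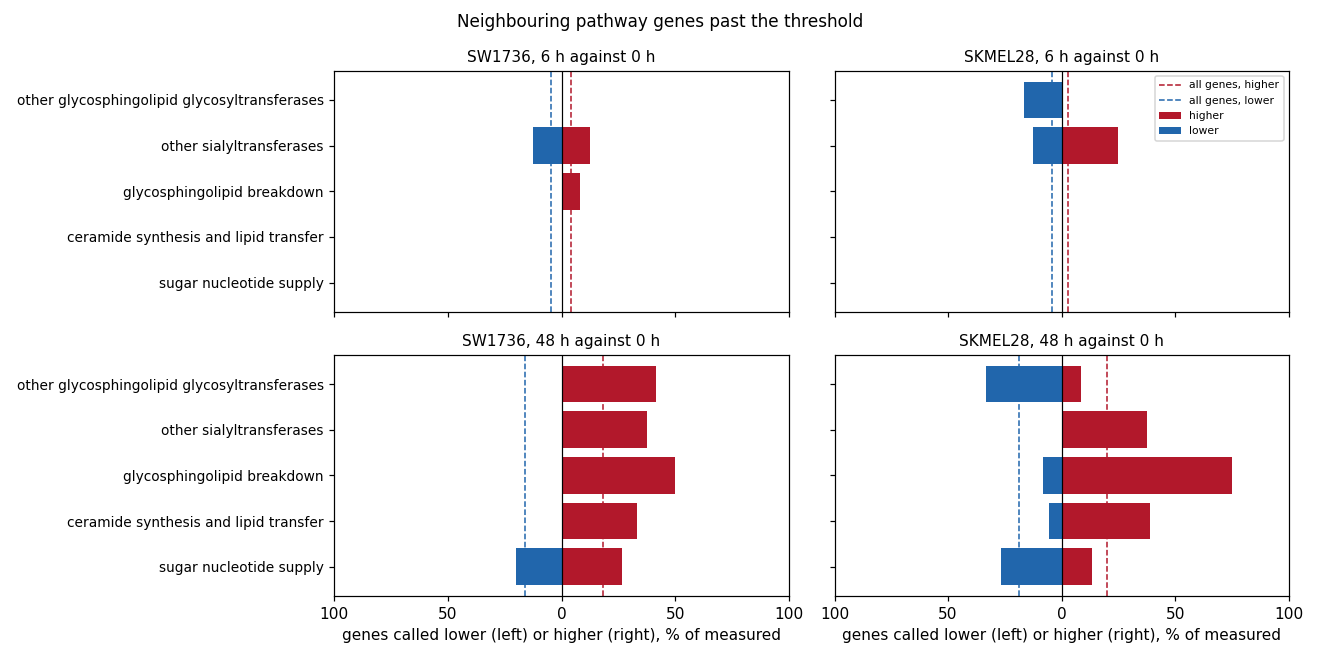
Share of measured genes of 5 neighbouring lists called lower (blue, to the left) or higher (red, to the right) against untreated cells, at 6 h (top) and 48 h (bottom), in SW1736 (left) and SKMEL28 (right). Dashed lines give the shares over all genes. At 48 h breakdown, other sialyltransferases, and ceramide synthesis and lipid transfer all stand above the all-gene share of higher calls in both lines. The other glycosyltransferases lean upward in SW1736 and downward in SKMEL28.

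Some markers of cell state moved over the same times. Over all genes at 48 h, 18.2% were higher and 16.1% lower in SW1736, and 20.1% higher and 18.9% lower in SKMEL28. In SKMEL28 the summed intensity of the 7 measured melanocyte markers was 59300 to 61900 at 48 h against 33700 to 34700 at 0 h, with 4 of 7 higher and 1 lower. In SW1736, 1 of 5 measured fibroblast markers rose at 48 h (PDGFRB, by 3.33 ± 0.17), and the summed intensity of the 5 was 1810 to 2230 against 1120 to 1370 at 0 h. Both measured immune markers, CD14 and CD68, rose in SW1736 at 48 h, while PTPRC was detected on at most 2 of 24 arrays and CD3E on 0. None of the 4 endothelial markers passed the filter. Of 6 epithelial markers 1 rose and 2 fell in SW1736 at 48 h. The part of these markers in the enzymes' changes was not tested.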

How the data were processed

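Total RNA of SW1736 and SKMEL28 cells, 3 arrays at each of 4 times, was measured on Illumina bead arrays. The deposited table holds a linear signal intensity and, per the file headers, the p-value of each probe's detection, with no background treatment stated. The authors also deposited a log2 value table, whose values lay within 0.008 of quantile-normalized log2 intensities without background correction; its medians were 6.90. Partek is named in the submitters' processing notes, version not given. Arrays give no counts, so their number limits precision.

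Intensities were background-corrected (normexp with detection p-values, offset 16), put on the log2 scale and quantile normalized with limma 3.58.1 in R 4.3.3. The filter kept 26673 of 47231 probes, those with a detection p under 0.05 on 3 or more arrays. By the platform annotation 30113 probes had 1 symbol, 8 several and 17110 none; each gene was read from its brightest probe. Per array, 36.8% to 42% of probes were detected. No 2 arrays were identical, and 0 columns were left unmapped.

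One limma model with a mean for each of 8 groups (16 residual and 6.41 prior degrees of freedom) gave 13 comparisons, Benjamini-Hochberg adjusted over 13699 genes; second probes were adjusted over 18896 probes. Plots were drawn with matplotlib 3.10.9. On simulated data, 83.8% of 2-fold changes at 6 h in SKMEL28, 82.4% in SW1736 and 32.8% of such differences between lines were called. The simulation changed fewer genes than were called in the data and set no detection limit. These shares therefore need not hold for the enzymes, least of all for the dim ones.

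Named are the 8 enzymes with all probes. Of each list, up to 3 genes each way with a large non-overlapping called change at 6 h or 48 h are named. They are a selection and not always the largest changes. In SKMEL28 the mean of CERS4, of the ceramide list, was 5.60 at 0 h and 7.64 at 48 h. That of ST6GALNAC3, of the glycosyltransferase list, was 7.04 and 8.15. The 5 genes most like ST8SIA1 and A4GALT, DUSP6 and SPRY4 as drug readout, and markers are named too. The 8 enzymes, the lists and the motifs were chosen with earlier results of these data known. Alternatives changed the background correction, scaling, source table, filter, probe rule, arrays fitted, replicate block and array weights, and left out each array.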

Additional observations from a re-analysis of the deposited data

Results flagged for a closer look

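The changes under vemurafenib were compared between SW1736 and SKMEL28, where 4.26% of all genes were called at 6 h, 21% at 48 h and 18.2% between 6 h and 48 h. At 6 h the difference, SW1736 minus SKMEL28, was 1.87 for A4GALT, whose arrays moved up in SW1736 and down in SKMEL28 and for which the difference was not tested. By limma's test of the difference it was 0.84 for B4GALT5, 2.35 for B4GALT6 (adjusted p = 9.96e-08) and 1.27 for ST3GAL2. At 48 h it was 3.05 for ST8SIA1, which was not tested. The differences that limma called at 48 h were 1.65 for A4GALT, -1.20 for B4GALNT1, 1.16 for ST3GAL5, 1.04 for B4GALT5, 1.45 for B4GALT6 (adjusted p = 1.49e-05) and 1.96 for ST3GAL2. Between 6 h and 48 h the change of B4GALT6 differed by -0.90 (adjusted p = 0.00366). All are fitted values. The main probe of ST8SIA1 and the probe of B4GALT6 were undetected in SW1736 at all times, B4GALNT1 was undetected in SKMEL28 at all times and in SW1736 at 48 h, and A4GALT was undetected in SKMEL28 at 6 h and 48 h, so these sizes are not exact. The 48 h value of A4GALT shares its untreated arrays with the 6 h values that chose the gene.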

How the results depend on the processing

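Of 34 called changes of the enzymes, 0 reversed in sign under any of 10 other settings or when each of 24 arrays was left out. Under the other settings 7 calls were lost at least once, and 6 were lost when some array was left out. The number of enzymes called for SW1736 at 6 h was 1 and became 0 without background correction, with the authors' deposited values and with the line fitted alone. The number whose change differed between lines at 6 h was 3 and became 1 with median scaling. Leaving out 1 array gave 0 to 1 enzymes at 6 h, 5 to 6 at 48 h and 2 to 3 between them in SW1736, and 3 to 4 at each in SKMEL28. For the differences between lines it gave 1 to 3 at 6 h, 6 to 6 at 48 h and 1 to 2 between them, and 4 to 4 between untreated lines. UGCG lost its rise between 6 h and 48 h in SKMEL28 without any of 5 arrays of those times (all but the first 6 h array; 0.42 to 0.51, adjusted p = 0.062 to 0.122) and with median scaling (0.56, adjusted p = 0.0513). A4GALT in SW1736 at 48 h lost its call with array weights (0.76, adjusted p = 0.0545), and UGCG there did too (0.51, adjusted p = 0.0752). The difference of ST3GAL2 at 6 h was lost under several settings, at 0.55 without background correction (adjusted p = 0.0752), 1.27 without the filter (adjusted p = 0.0681) and 1.21 with array weights (adjusted p = 0.105). With the replicate block it missed the threshold too (1.27, adjusted p = 0.0549), and the block changed no other call of an enzyme. The numbers were not taken to pair samples: deviations of same-numbered arrays correlated at -0.00 to 0.18 in SW1736, 4 of 18 pairs over 0.1, and at -0.02 to 0.07 in SKMEL28, 0 of 18, while arrays of other numbers correlated at -0.14 to 0.06 and -0.09 to 0.05. ST3GAL5 gained a call for that difference without background correction (0.88, adjusted p = 0.000361) and with its probes averaged (1.00, adjusted p = 0.00101). Over all genes, fitting each line alone called 490 genes in place of 1192 for SW1736 at 6 h and 1835 in place of 945 for SKMEL28. At 1 h it called 4 in place of 29 in SW1736, and array weights called 70 in place of 24 in SKMEL28. Median scaling moved the median of all genes at 6 h in SKMEL28 to -0.13 and the share of called genes that were higher from 46.3% to 24.9% in SW1736 and from 38.4% to 18% in SKMEL28. Dim probes limit B4GALNT1, ST3GAL2, and A4GALT and, at 6 h, B4GALT6 in SKMEL28, where values lie near the detection limit. The second ST3GAL5 probe is limited in the same way in SW1736. The cause of these shifts was not tested.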
